A study of Mus musculus with 15 samples.

Results

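The genes of the mevalonate and sterol synthesis pathway, with those of its control by the transcription factor SREBP2, were followed through a week of poly(I:C) injections into WEHI-164 tumors. They are 27 named genes of the 32544 entries in the deposited table, listed by name for their place in the pathway. The list was chosen with earlier results of these data known. There were 6 genes of the mevalonate steps, 2 of prenyl diphosphate synthesis, 3 of squalene formation and closure, 9 of the later sterol steps, 6 of SREBP2 control and 1 sterol carrier. The first 20 are called the synthesis enzymes here. All 27 passed the filter on low counts.

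WEHI-164 is a mouse fibrosarcoma cell line, grown here under the skin of female BALB/c mice labelled as wild type. Poly(I:C), a double-stranded RNA made by synthesis, is sensed by Toll-like receptor 3. Day 0 tumors were untreated, and the other tumors received poly(I:C) into the tumor each day, by the labels 1 µg in 25 µL for a planned 6 doses, before harvest on day 1, 3, 5 or 7. The study elsewhere gives a higher daily dose for this experiment, so the dose is uncertain. Each day had 3 tumors, 15 in all, and the labels do not say whether each came from a mouse of its own. No vehicle-injected tumors of matching days were analysed here, so poly(I:C), the injections and the time of growth cannot be told apart.

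Cells make cholesterol from acetyl-CoA through mevalonate, isoprenoid diphosphates, squalene and a series of sterols. When sterols in the endoplasmic reticulum are low, Scap carries SREBP2 to the Golgi, where proteases release a fragment that enters the nucleus and switches on most genes of the pathway. When sterols are plentiful, Insig proteins hold the Scap and SREBP2 complex back, and oxysterols activate LXR receptors, which induce genes of cholesterol export.

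SREBP2 is known to bind sterol regulatory elements close to transcription starts and to act there with NF-Y, which binds CCAAT boxes. RefSeq windows on GRCm38.p6, from 250 bases before to 50 bases after a transcription start, were at hand for 23 of the 27 genes, all but Fdps, Fdft1, Sqle and Stard4. A CCAAT box, searched as CCAAT on both strands, stood in the windows of 19 of the 23 genes (82.6%), against 41.1% of 27025 mouse genes with a window and 42.5% of the 11077 of them that were tested here. The 4 genes without it were Acat2, Scap, Mbtps1 and Mbtps2. The sterol regulatory element, searched as TCACNCCAC on both strands, was found in Hmgcs1 only, and in 1.44% of all genes with a window. These are matches of letters and not measured binding. The stretches printed here lie upstream of the start site and outside annotated exons, read along the gene's strand with base -1 next to the start site. Capitals mark the matches, where ATTGG is CCAAT on the other strand. Hmgcs1 is shown because it alone held both motifs, Lss, Hsd17b7 and Srebf2 because they were lower on day 3, and Mvk and Ebp because they held CCAAT boxes and differed little on that day.
Hmgcs1, chr13:119690171-119690250, plus strand, bases -180 to -101: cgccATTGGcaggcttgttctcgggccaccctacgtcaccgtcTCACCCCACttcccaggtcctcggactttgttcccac
Lss, chr10:76531510-76531569, plus strand, bases -95 to -36: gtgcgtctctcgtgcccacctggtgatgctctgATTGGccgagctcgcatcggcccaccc
Hsd17b7, chr1:169969256-169969315, minus strand, bases -110 to -51: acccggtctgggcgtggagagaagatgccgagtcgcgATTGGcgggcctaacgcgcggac
Srebf2, chr15:82147109-82147168, plus strand, bases -160 to -101: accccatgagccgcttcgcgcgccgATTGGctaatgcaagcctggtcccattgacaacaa
Mvk, chr5:114444189-114444268, plus strand, bases -80 to -1: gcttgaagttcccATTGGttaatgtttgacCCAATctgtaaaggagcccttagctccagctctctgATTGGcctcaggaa
Ebp, chrX:8193543-8193602, minus strand, bases -90 to -31: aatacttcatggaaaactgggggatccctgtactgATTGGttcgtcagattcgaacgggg

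Levels are given as CPM, a count scaled to a common library total with TMM factors, in the order replicate 1, 2 and 3. The tumors had totals of 23.7 to 31.9 mega-counts. A pair of day 3 tumors stood apart in their cellular markers. In day 3 replicate 1 the 10 skeletal muscle markers summed to 3789 CPM, against 3.93 to 199 CPM in the other 14 tumors, the 12 macrophage markers to 7609 CPM, against 3157 and 3726 CPM in the other day 3 tumors, and the 10 proliferation genes to 930.1 CPM, against 2200.0 and 2394 CPM. The 8 fibroblast or mesenchymal markers summed to 29260 CPM in that tumor and to between 8846 and 14460 CPM in the other 14. In day 3 replicate 3 the 7 keratinocyte markers summed to 26.1 CPM, against 2.05 to 3.58 CPM in the other 14 tumors, with Krt14 at 18.3 CPM against at most 0.202 CPM and Krt5 at 4.12 CPM against at most 0.0403 CPM. Day 3 medians and unadjusted edgeR counts are therefore also given without replicate 1, and the counts of members without replicate 3. For single genes the value without replicate 1 is given for only part of them. These are bulk tumors, in which fewer cells of a type and less RNA per cell cannot be told apart.

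Most of the pathway was at its lowest on day 3 and back near the untreated level on day 7. On day 3, 24 of the 27 genes had a lower fitted level than on day 0. Their median log2 fold change was -0.74, beside -0.02 over all 15494 genes tested. Day 3 had the lowest mean of the 5 days in 23 members, all but Mvk, Tm7sf2, Ebp and Scap, and the share of all genes with that order is not given. Cyp51 and Idi1 stood at 32.6% and 33.8% of their untreated mean, and Fdps, Sqle, Hsd17b7 and Hmgcs1 between 41.4% and 43.3%. With edgeR's quasi-likelihood test and Benjamini-Hochberg adjustment over all genes, no member passed an adjusted p of 0.05 on day 3, where 0% of all genes did. The adjusted p of members started at 0.115. At an unadjusted p under 0.05, 17 of 27 members were lower and 0 higher, against 11.7% of all genes lower and 18.3% higher. DESeq2 called 10 members lower after adjustment, where it called 3.91% of all genes. These were Hmgcs1, Idi1, Fdps, Fdft1, Sqle, Lss, Cyp51, Msmo1, Hsd17b7 and Srebf2. In 19 members every day 3 tumor lay below every day 0 tumor, as in 19% of all genes. Without day 3 replicate 1, 26 of 27 members were lower with a median of -0.61, and 14 had an unadjusted edgeR p under 0.05 (6.56% of all genes lower), while DESeq2 then called 0 (0.286% of all genes). With replicate 3 left out instead, 24 of 27 members were lower with a median of -0.64, 18 had an unadjusted edgeR p under 0.05 (17.6% of all genes lower), and DESeq2 called 11 (10.4% of all genes).

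**Figure D1:**
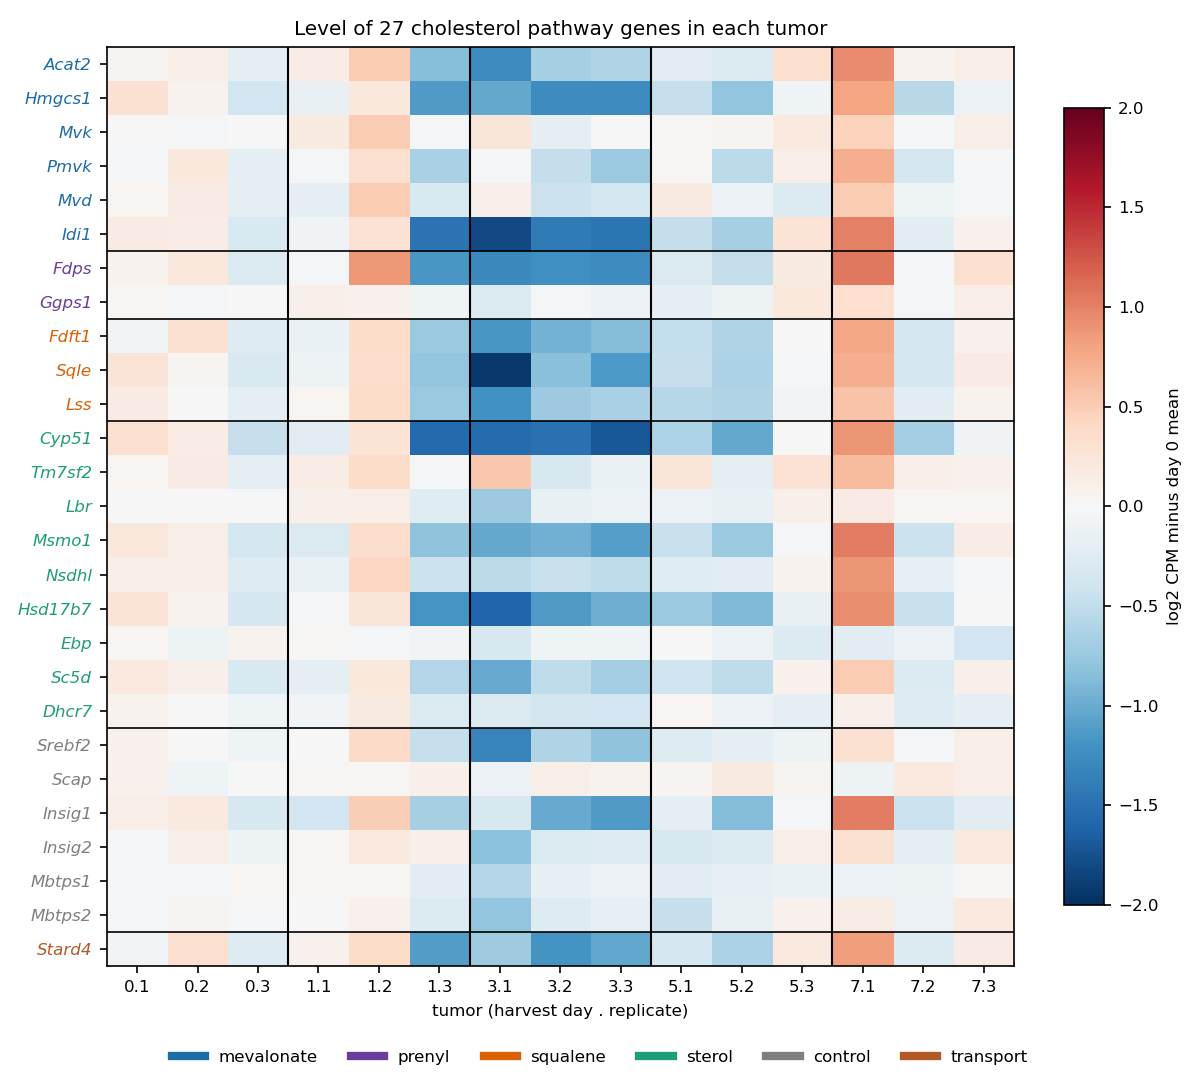
Level of the 27 genes (rows, grouped by pathway step) in the 15 tumors (columns, labelled by harvest day and replicate), as log2 CPM minus the day 0 mean. The 3 day 3 tumors and day 1 replicate 3 are blue over most enzymes, and day 7 replicate 1 is red.

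The mevalonate steps divided into genes that were far lower on day 3 and genes that differed little. Idi1 makes dimethylallyl diphosphate, the starter of isoprenoid chains, and its level was 89.5, 88.4 and 64.3 CPM on day 0, 75.9, 98.01 and 28.8 CPM on day 1, 22.9, 30.04 and 29.03 CPM on day 3, 57.2, 50.1 and 96.4 CPM on day 5 and 161, 68.4 and 84.5 CPM on day 7. All day 3 tumors lay below all untreated tumors, with a log2 fold change of -1.56 ± 0.42 (SE), an unadjusted p of 0.00281 in edgeR and an adjusted p of 0.115. DESeq2 gave an adjusted p of 0.0138. Hmgcs1, the cytosolic HMG-CoA synthase that feeds the pathway, measured 132, 112 and 81.7 CPM on day 0, 96.4, 123 and 48.4 CPM on day 1, 52.7, 44.3 and 44.4 CPM on day 3, 77.4, 61.6 and 100.5 CPM on day 5 and 185, 72.7 and 98.4 CPM on day 7. Its day 3 values again lay apart from those of day 0, at a log2 fold change of -1.21 ± 0.37 (edgeR adjusted p = 0.115, DESeq2 adjusted p = 0.0259). Acat2, the thiolase that joins acetyl units at the entry, was at 34.9, 36.9 and 29.7 CPM on day 0, 14.1, 21.2 and 22.3 CPM on day 3 and 64.8, 35.4 and 36.9 CPM on day 7. Its log2 fold change of -0.82 ± 0.33 became -0.63 without day 3 replicate 1, the lowest of the 3 (edgeR adjusted p = 0.138 with all tumors).

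The kinases and the decarboxylase between them differed less when all tumors were used. Mvk, mevalonate kinase, was at 11.8, 11.5 and 11.8 CPM on day 0, 13.9, 10.3 and 11.6 CPM on day 3 and 16.1, 11.4 and 12.7 CPM on day 7, with overlapping groups and a log2 fold change of 0.03 ± 0.17, or -0.09 without day 3 replicate 1. Pmvk, which adds the next phosphate, was at 18.0, 21.3 and 16.1 CPM on day 0, 18.0, 13.2 and 10.9 CPM on day 3 and 30.6, 14.4 and 17.9 CPM on day 7 (-0.40 ± 0.31, and -0.61 without day 3 replicate 1, close to Acat2), and day 3 replicate 1 lay within the untreated range while the other day 3 tumors lay below it. Mvd, which removes the carboxyl group, was at 13.3, 14.5 and 11.2 CPM on day 0, 13.9, 9.60 and 10.1 CPM on day 3 and 18.4, 12.2 and 12.6 CPM on day 7 (-0.22 ± 0.25, and -0.40 without that tumor), with the same arrangement of tumors. Of the 6 mevalonate genes 3 were lower at an unadjusted edgeR p under 0.05 (11.7% of all genes), and the median log2 fold change was -0.61. Without day 3 replicate 1 these were 2 (6.56% of all genes) and -0.62. Acat2 has a near-identical copy, Acat3, whose 16 to 47 counts per tumor are small, but reads of the pair cannot be divided with certainty.

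At the branch to isoprenoids, the gene for farnesyl diphosphate and that for geranylgeranyl diphosphate behaved unlike each other. Fdps, which makes the precursor of both squalene and protein farnesylation, was at 92.1, 102 and 72.1 CPM on day 0, 85.5, 161 and 39.03 CPM on day 1, 35.96, 37.6 and 36.5 CPM on day 3, 71.7, 62.8 and 99.0 CPM on day 5 and 182, 85.8 and 109.9 CPM on day 7. The day 3 tumors lay within a narrow range, at 36.7 ± 0.828 CPM (SD, n = 3), below every other tumor of the series. The log2 fold change was -1.27 ± 0.41 (edgeR adjusted p = 0.115, DESeq2 adjusted p = 0.0293). Ggps1, which extends the chain for protein geranylgeranylation, was at 23.6, 22.3 and 22.7 CPM on day 0, 18.6, 22.4 and 20.97 CPM on day 3 and 28.8, 22.6 and 24.96 CPM on day 7, with overlapping groups and a log2 fold change of -0.15 ± 0.13 (edgeR adjusted p = 0.406).

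All 3 genes of squalene formation and closure were lower, with a median of -1.01, or -0.92 without day 3 replicate 1. Fdft1, squalene synthase, commits farnesyl diphosphate to sterols and was at 42.2, 54.2 and 36.7 CPM on day 0, 19.4, 22.6 and 24.1 CPM on day 3 and 75.3, 34.8 and 46.6 CPM on day 7 (-1.01 ± 0.31). Sqle, the epoxidase that is a slow step of the sterol branch, was at 107, 93.2 and 72.3 CPM on day 0, 83.2, 114 and 51.99 CPM on day 1, 23.6, 50.1 and 40.2 CPM on day 3, 64.9, 57.5 and 87.7 CPM on day 5 and 149, 70.4 and 101 CPM on day 7. Its log2 fold change was -1.26 ± 0.35 with all tumors and -1.005 without day 3 replicate 1, its lowest tumor. Lss, which closes the ring to lanosterol, was at 46.6, 41.7 and 36.8 CPM on day 0, 17.8, 25.1 and 26.5 CPM on day 3 and 61.5, 35.7 and 43.6 CPM on day 7 (-0.85 ± 0.28, and -0.69 without day 3 replicate 1). In each of the 3, all day 3 tumors lay below all day 0 tumors (19% of all genes), edgeR's adjusted p was 0.115 and DESeq2's lay between 0.0158 and 0.0376. Fdft1 shares 774 bases of exon with Ctsb on the opposite strand, and the strandedness of the counting was not given in the sources used here.

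Among the 9 genes that turn lanosterol into cholesterol, 5 were lower at an unadjusted edgeR p under 0.05 (11.7% of all genes) and the median was -0.52. Without day 3 replicate 1 these were 5 (6.56% of all genes) and -0.49. Cyp51, the lanosterol demethylase, had the largest fitted difference of all members, with 72.96, 64.6 and 42.5 CPM on day 0, 49.99, 70.7 and 19.97 CPM on day 1, 19.97, 20.7 and 18.01 CPM on day 3, 38.1, 28.7 and 58.8 CPM on day 5 and 108, 36.4 and 55.6 CPM on day 7. The log2 fold change was -1.62 ± 0.46 (edgeR adjusted p = 0.115, DESeq2 adjusted p = 0.0169), and -1.63 without day 3 replicate 1. Msmo1, Nsdhl and Hsd17b7 together strip the methyl groups that remain. Msmo1 was at 65.7, 60.7 and 43.7 CPM on day 0, 27.5, 28.6 and 26.1 CPM on day 3 and 113, 41.5 and 61.7 CPM on day 7 (-1.05 ± 0.35). Hsd17b7 was at 18.4, 16.01 and 12.1 CPM on day 0, 5.03, 6.91 and 7.74 CPM on day 3 and 29.01, 11.1 and 15.2 CPM on day 7 (-1.24 ± 0.40, and -1.08 without day 3 replicate 1). Nsdhl differed less, at 35.6, 36.01 and 27.2 CPM on day 0, 22.4, 23.9 and 22.9 CPM on day 3 and 60.5, 29.2 and 31.8 CPM on day 7 (-0.52 ± 0.27, unadjusted p = 0.0756 in edgeR). All 3 genes had day 3 tumors entirely below day 0, as in 19% of all genes.

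Sc5d, a sterol desaturase near the end of the pathway, was at 31.9, 29.8 and 22.4 CPM on day 0, 13.7, 19.5 and 17.2 CPM on day 3 and 39.5, 22.97 and 29.7 CPM on day 7 (-0.74 ± 0.25, and -0.61 without day 3 replicate 1). Dhcr7, a reductase of the last steps, was at 25.1, 24.02 and 22.4 CPM on day 0, 19.4, 18.4 and 18.2 CPM on day 3 and 25.5, 19.8 and 20.7 CPM on day 7, a smaller but even difference of -0.35 ± 0.13 with no overlap (edgeR adjusted p = 0.123). The sterol reductase pair had opposite signs on day 3 with all tumors, and both were slightly lower without replicate 1 of that day. Lbr, which is also a receptor for nuclear lamins, was at 101, 101 and 102 CPM on day 0, 61.5, 91.8 and 93.3 CPM on day 3 and 114, 105 and 104 CPM on day 7, and its log2 fold change went from -0.30 ± 0.15 to -0.13 without day 3 replicate 1. Tm7sf2 was at 4.62, 5.06 and 3.92 CPM on day 0, 6.56, 3.60 and 4.08 CPM on day 3 and 7.04, 4.83 and 4.81 CPM on day 7 with overlapping groups (0.07 ± 0.26), and turned to -0.24 without that tumor. Ebp, the sterol isomerase, was at 58.9, 53.7 and 60.6 CPM on day 0, 46.2, 54.4 and 54.5 CPM on day 3 and 50.1, 53.1 and 44.4 CPM on day 7 (-0.16 ± 0.10 on day 3), and on day 7 it was the only member past an unadjusted edgeR p of 0.05 against day 0, with all day 7 tumors below all day 0 tumors.

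**Figure D2:**
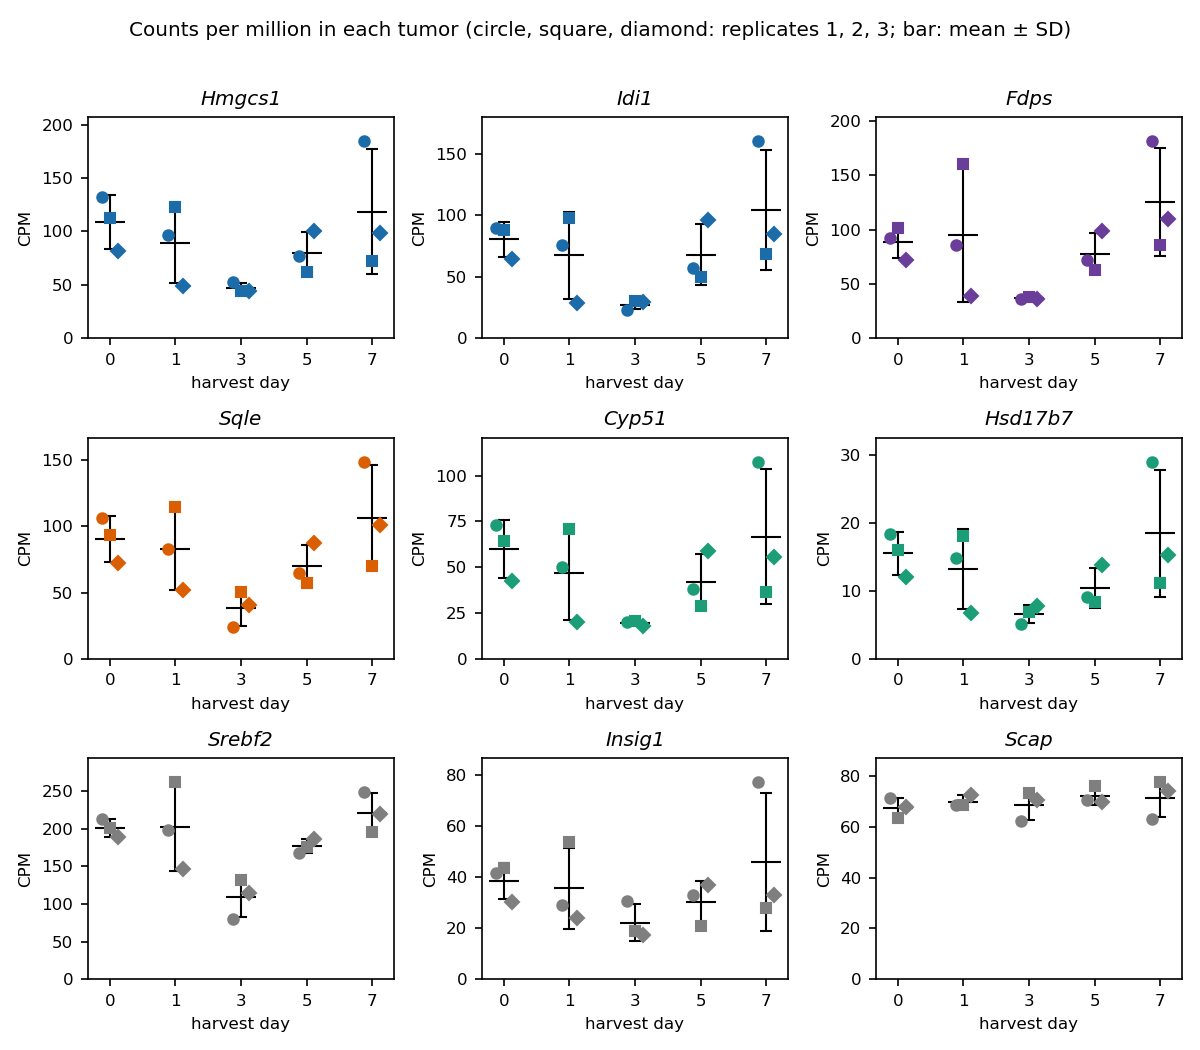
CPM of 9 members by harvest day, with 1 symbol per tumor and a bar for mean ± SD of 3 tumors. Day 3 is the lowest mean in each panel except that of Scap, and day 7 replicate 1 is the highest tumor for Hmgcs1, Idi1, Fdps, Sqle, Cyp51, Hsd17b7 and Insig1.

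Of the 6 control genes, the transcription factor itself had the smallest p of all members. Srebf2, which encodes SREBP2 and is also one of its targets, was at 214, 201 and 188 CPM on day 0, 199, 262 and 146 CPM on day 1, 79.8, 132 and 115 CPM on day 3, 168, 176 and 187 CPM on day 5 and 249, 195 and 220.0 CPM on day 7. The 3 day 3 tumors were the lowest of the 15, at 109 ± 26.5 CPM against 201 ± 12.5 CPM on day 0 (SD, n = 3). The log2 fold change was -0.89 ± 0.21, with an unadjusted p of 0.000903 and an adjusted p of 0.115 in edgeR and an adjusted p of 0.00699 in DESeq2, and it was -0.70 without day 3 replicate 1. Scap, the escort of SREBP2, did not share this pattern. It was at 71.2, 63.6 and 67.9 CPM on day 0, 68.6, 68.7 and 72.8 CPM on day 1, 62.2, 73.4 and 70.6 CPM on day 3, 70.4, 76.2 and 69.7 CPM on day 5 and 63.1, 77.7 and 74.03 CPM on day 7, a range within which no day stood apart (0.03 ± 0.10 on day 3).

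Insig1, a retention protein whose gene SREBP2 induces, was at 41.4, 43.4 and 30.3 CPM on day 0, 29.04, 53.6 and 23.9 CPM on day 1, 30.5, 18.8 and 17.2 CPM on day 3, 32.98, 20.9 and 36.8 CPM on day 5 and 77.2, 28.03 and 32.9 CPM on day 7. Day 3 replicate 1 just overlapped the lowest untreated tumor, and the other day 3 tumors lay well below it, so the log2 fold change was -0.79 ± 0.41 (unadjusted p = 0.0745 in edgeR) with all tumors and -1.09 without replicate 1. Insig2, the second retention protein, was at 61.7, 67.7 and 58.5 CPM on day 0, 35.5, 51.2 and 52.1 CPM on day 3 and 77.1, 54.96 and 71.4 CPM on day 7 (-0.44 ± 0.17). The proteases that release SREBP2 differed less, with Mbtps1 at 193, 192 and 202 CPM on day 0, 130.4, 175 and 179.5 CPM on day 3 and 180.2, 182 and 199 CPM on day 7 (-0.28 ± 0.12) and Mbtps2 at 55.4, 58.9 and 55.1 CPM on day 0, 32.5, 47.1 and 50.5 CPM on day 3 and 62.2, 51.99 and 64.5 CPM on day 7 (-0.38 ± 0.17). For Insig2, Mbtps1 and Mbtps2 the lowest tumor was day 3 replicate 1, and without it the values were -0.28, -0.14 and -0.21. The median of the 6 control genes went from -0.41 to -0.24 when that tumor was left out. Stard4, a carrier of cholesterol between membranes and a known SREBP2 target, was at 30.6, 39.8 and 26.6 CPM on day 0, 19.4, 13.9 and 15.4 CPM on day 3 and 56.9, 26.3 and 35.7 CPM on day 7, with a log2 fold change of -0.99 ± 0.37 that was -1.14 without day 3 replicate 1.

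Per kilobase of exon, the untreated levels of the members spanned from 1.03 CPM per kb for Tm7sf2 to 27.99 CPM per kb for Srebf2. Ebp, at 25.0, and Lbr, at 21.3, stood as high as Hmgcs1, at 23.7, and Idi1, at 23.04. On day 3 the last pair stood at 10.3 and 7.79 CPM per kb, while Ebp and Lbr stood at 22.4 and 17.3. The large and the small differences were therefore both found among abundant transcripts, and the lowest count of any member in a tumor was 98, for Tm7sf2.

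On GRCm38, by GENCODE M21, Hmgcs1 lies at chr13:119690379-119708260 and Idi1 at chr13:8885501-8892451 on the plus strand, Fdps at chr3:89093588-89101959 and Cyp51 at chr5:4081145-4104746 on the minus strand, and Sqle at chr15:59315077-59331192 and Srebf2 at chr15:82147181-82205379 on the plus strand. Exons of 11 members overlap those of another annotated gene, among them Hmgcs1, Idi1, Fdps, Fdft1 and Cyp51, so part of their reads could belong to the neighbour. Sqle, Msmo1, Hsd17b7, Srebf2 and Stard4 have no such overlap and were lower on day 3, while Mvk, Mvd and Ebp have none and differed little. The part of these overlaps in the counts was not tested.

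On day 1 and day 5 no member passed these tests against day 0. On day 1, 17 of 27 were lower with a median of -0.04, 0 passed an adjusted p of 0.05 (0% of all genes) and 0 an unadjusted p of 0.05 (3.16% of all genes). On day 5, 24 of 27 were lower with a median of -0.17, and again 0 passed the adjusted (0%) or the unadjusted threshold (4.8%). DESeq2 called 0 members on either day. On day 7, 24 of 27 had a higher fitted level than untreated tumors with a median of 0.17, yet 0 passed the adjusted threshold (0%), and the 1 at an unadjusted p under 0.05 (2.07%) was Ebp, which was lower. Comparisons with day 0 share the untreated tumors.

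**Figure D3:**
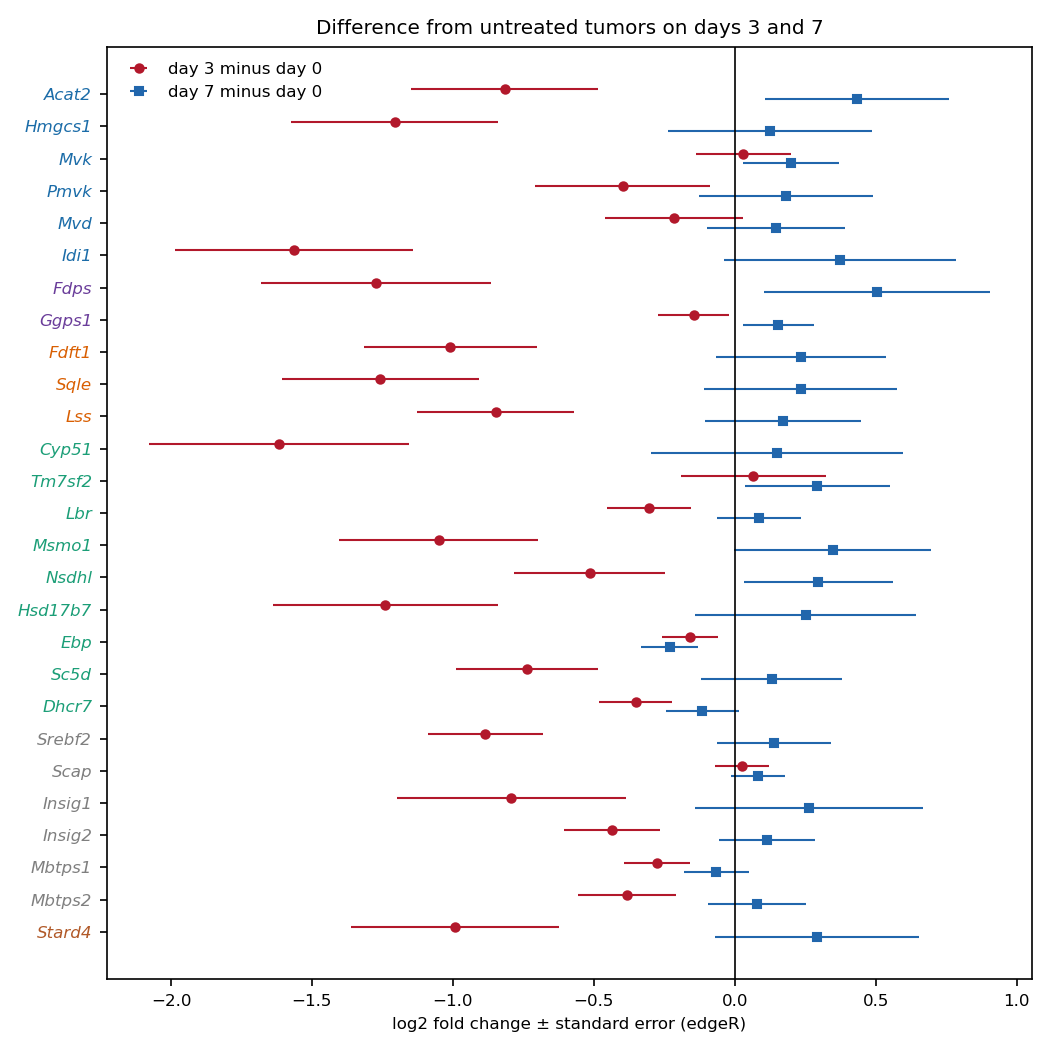
Fitted log2 fold change ± standard error of each member on day 3 (circles) and day 7 (squares) against day 0. On day 3 the members lie between -1.62 (Cyp51) and 0.07 (Tm7sf2), and on day 7 between -0.23 (Ebp) and 0.50 (Fdps).

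From day 3 to day 7 the pathway was higher again. Day 7 exceeded day 3 in 26 of the 27 members, the median log2 fold change was 0.87, and the exception was Ebp at -0.07 ± 0.10. Idi1 had the largest difference at 1.94 ± 0.43, followed by Fdps at 1.78 ± 0.41 and Cyp51 at 1.77 ± 0.46. In edgeR 0 members passed an adjusted p of 0.05 (0% of all genes, lowest adjusted p of members 0.0832), and 19 were higher at an unadjusted p under 0.05, against 12.9% of all genes. DESeq2 called 16 higher after adjustment (5.89% of all genes), and in 20 members all day 7 tumors lay above all day 3 tumors (14.6% of all genes). Mvk, Pmvk, Mvd, Tm7sf2, Ebp, Dhcr7, Scap and Mbtps1 were the 8 members above an unadjusted p of 0.05.

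This difference rested in part on single tumors. Without day 7 replicate 1 the median was 0.46, 14 members were higher at an unadjusted edgeR p under 0.05 (6.08% of all genes) and DESeq2 called 0 (0.0388% of all genes). Without day 3 replicate 1 the median was 0.81, 18 members were higher at that threshold (7.27% of all genes), and DESeq2 called 8 (0.241% of all genes, 37 in all), which were Hmgcs1, Idi1, Fdps, Sqle, Cyp51, Msmo1, Srebf2 and Stard4. With day 3 replicate 3 left out the median was 0.88 and 18 members were higher at that threshold (18.8% of all genes). In that setting 9 passed an adjusted p of 0.05 in edgeR (3.48% of all genes) and DESeq2 called 17 (13% of all genes). Day 1 replicate 3 is in neither day compared and enters through the shared estimate of spread, the low-count filter, the scaling and the adjustment. Leaving it out gave 3 past the adjusted threshold in edgeR, namely Idi1, Fdps and Srebf2 (0.0518% of all genes, 8 in all). In the joint test of the 4 treated days 13 members had an unadjusted p under 0.05 (16.2% of all genes) and 0 an adjusted p under 0.05 (0% of all genes), and DESeq2's joint test called 6 (7.65% of all genes).

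Tumors of the same day differed widely on days 1 and 7, and most members differed together. Day 1 replicate 3 lay below both other day 1 tumors in 25 of 27 members, all but Scap and Insig2. Its Idi1 was at 28.7 CPM against 75.9 and 98.01 CPM, its Fdps at 39.03 CPM against 85.5 and 160.7 CPM and its Cyp51 at 19.97 CPM against 49.99 and 70.7 CPM, values within the range of the day 3 tumors for Idi1 and Cyp51. It was among the 4 lowest of the 15 tumors in 17 of the 20 synthesis enzymes. Day 7 replicate 1 was the highest of the 15 tumors in 16 of the 20 enzymes, with Idi1 at 161 CPM beside 68.4 and 84.5 CPM in the other day 7 tumors. Shares of all genes with these arrangements are not given, so the counts for these tumors cannot be set against all genes. The median of the 27 members in a tumor, relative to the day 0 mean, was -0.10 ± 0.46 on day 1 and 0.18 ± 0.42 on day 7, against -0.65 ± 0.15 on day 3 (log2 units, SD, n = 3).

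**Figure D4:**
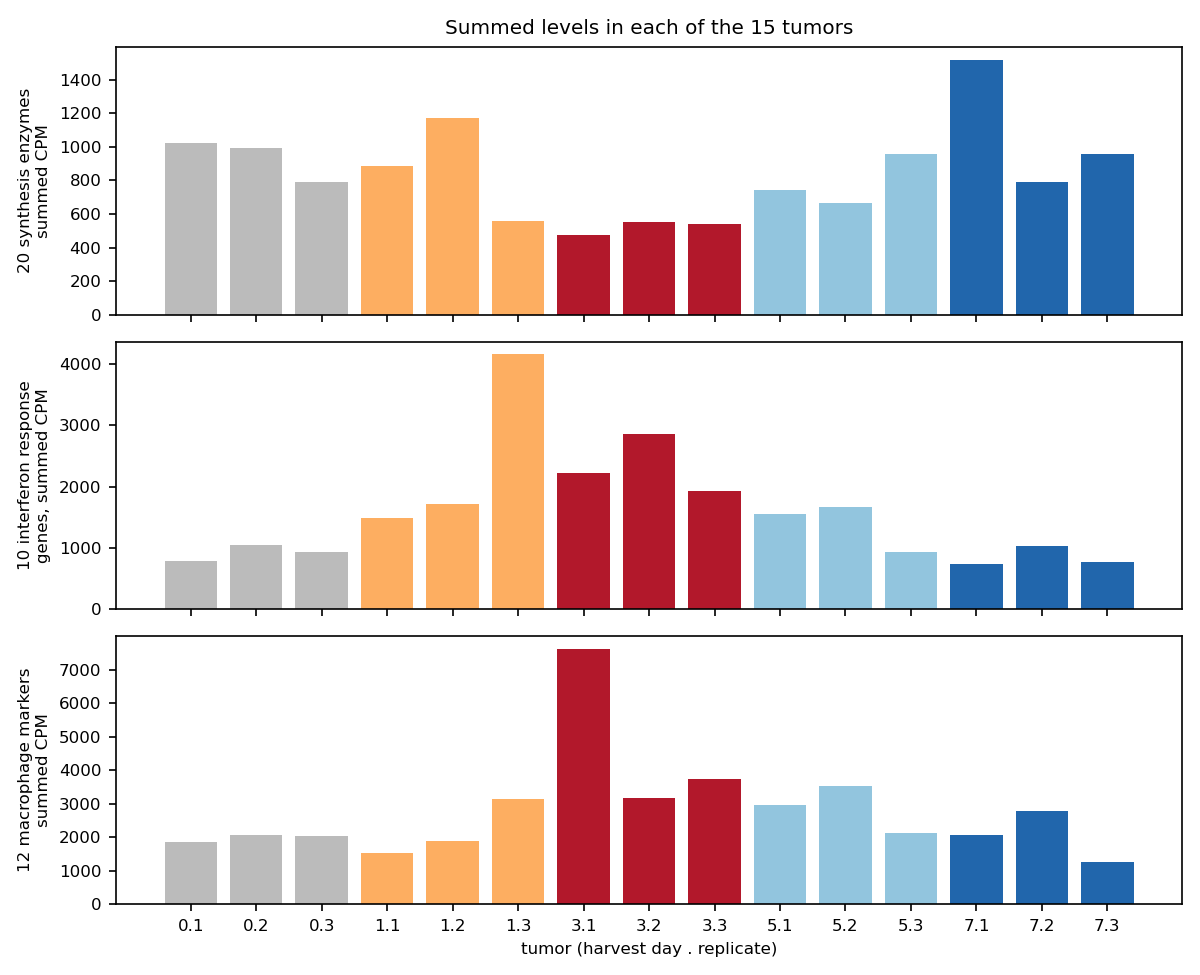
Summed CPM of the 20 synthesis enzymes, of 10 interferon response genes and of 12 macrophage markers in each tumor. Day 1 replicate 3 and the 3 day 3 tumors have the lowest enzyme sums, from 473 to 560.2 CPM, and the highest interferon sums, from 1937 to 4158 CPM.

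Set beside the marker lists, a choice made after the values were seen, the 4 tumors with the lowest summed CPM of the synthesis enzymes were those with the highest summed CPM of the 10 interferon response genes. Day 1 replicate 3 had 560.2 CPM of enzymes and 4158 CPM of interferon response genes. The day 3 tumors had 473, 554 and 539 CPM of enzymes and 2219, 2865 and 1937 CPM of interferon response genes. The other 11 tumors had between 662 and 1518 CPM of enzymes and between 737 and 1719 CPM of interferon response genes, and day 7 replicate 1 held the highest of the former and the lowest of the latter. The macrophage list ran much the same way. The 5 tumors with the lowest enzyme sums, which were these 4 and day 5 replicate 2 at 662 CPM, were also the 5 with the highest macrophage sums, at 3148 CPM in day 1 replicate 3, 7609, 3157 and 3726 CPM on day 3 and 3516 CPM in day 5 replicate 2. Day 3 replicate 1, the tumor with the lowest enzyme sum, had the highest macrophage sum and the third highest interferon sum. On day 3, 10 of the 12 macrophage markers, 9 of the 10 T cell markers and 9 of the 10 interferon response genes were higher at an unadjusted edgeR p under 0.05 (18.3% of all genes), and none of their edgeR tests passed adjustment. DESeq2 called 10, 7 and 7 genes of these lists higher after adjustment, where it called 1397 of the 15494 genes tested higher. The unadjusted edgeR counts without day 3 replicate 1 were 9, 1 and 9 (6.52% of all genes), and the median log2 fold change of the T cell markers was 1.32 in place of 2.03. On day 1 all 10 interferon response genes were higher at an unadjusted edgeR p under 0.05 (3.16% of all genes in either direction). Their median log2 fold change was then 1.68, while the synthesis enzymes had a median of -0.05 and 0 at that p. Day 1 replicate 2 had 1719 CPM of interferon response genes, the most outside the 4 tumors named above. Its enzyme sum of 1173 CPM lay above every untreated tumor. The summed T cell markers were 38.8 to 53.2 CPM on day 0 and 113 to 383 CPM on day 3. The adipocyte list reached 309 CPM in day 3 replicate 1, against 9.99 to 64.3 CPM elsewhere, and the erythroid list was highest on day 7, at 29.01, 147 and 221 CPM. The part of any of these lists in the levels of the members was not tested.

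Among the synthesis enzymes the tumor-to-tumor pattern was shared to different degrees. The correlation of a gene's log2 CPM with the mean Z-score of the other enzymes, over 15 tumors that share their scaling, was 0.98 for Msmo1 and 0.97 for Cyp51, Fdft1, Fdps and Hmgcs1, and it was 0.61 for Mvk, 0.49 for Tm7sf2 and -0.03 for Ebp. Among the others it was 0.95 for Stard4, 0.90 for Insig1, 0.88 for Srebf2 and -0.30 for Scap. The 10 genes outside the members that were most like the enzyme mean included Scd2, Fads2, Scd1 and Acsl3, which make or activate fatty acids, with correlations of 0.95, 0.93, 0.92 and 0.91. Tuba1a, an alpha tubulin, was at 0.93, and Zfp773, Zfp248 and Gm13502 were at 0.94, 0.92 and 0.93. Without day 3 replicate 1 the correlations of these 8 genes lay between 0.90 and 0.96.

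Genes next to the pathway differed by their kind. Fatty acid synthesis, driven by the related factor SREBP1, was also lower, with 10 of 11 genes lower on day 3, a median of -0.45 and 5 at an unadjusted edgeR p under 0.05 (11.7% of all genes lower). In the fit that left out day 3 replicate 1 all 11 were lower, the median was -0.28 and 3 were at that threshold (6.56% of all genes). DESeq2 called 3 lower after adjustment with all tumors (3.91% of all genes) and 0 without that tumor (0.286%). Fads2, a desaturase, was at 34.7 ± 3.04 CPM on day 0 and 15.6 ± 4.15 CPM on day 3 (-1.15 ± 0.31), Scd2, another desaturase, at 622 ± 109 CPM on day 0 and 343 ± 58.5 CPM on day 3 (-0.86 ± 0.28), and Elovl6, an elongase, at 63.8 ± 5.20 CPM on day 0 and 31.9 ± 10.7 CPM on day 3 (-1.0 ± 0.34). Without day 3 replicate 1 the log2 fold changes were -0.94 for Fads2, -0.72 for Scd2 and -0.74 for Elovl6. The 9 genes of oxysterol sensing and cholesterol efflux went the other way, with 0 lower, a median of 1.39 and 6 higher at that threshold, read against the 18.3% of all genes given above. Without day 3 replicate 1 the median was 0.52 and 3 were at that threshold, where 6.52% of all genes were higher. With all tumors DESeq2 called 5 higher after adjustment, where it called 1397 of the 15494 genes tested higher. Abcg1, a cholesterol exporter, was at 28.3 ± 5.999 CPM on day 0 and 209 ± 164 CPM on day 3 (2.89 ± 0.81), Nr1h3, which encodes an LXR receptor, at 10.4 ± 2.75 CPM on day 0 and 43.2 ± 23.1 CPM on day 3 (2.06 ± 0.61), and Mylip, an LXR-induced ubiquitin ligase, at 20.7 ± 0.626 CPM on day 0 and 54.3 ± 37.7 CPM on day 3 (1.39 ± 0.42). Day 3 replicate 1, with 7531 CPM summed over this list beside 1890.0 and 1707 CPM, lay far above the other day 3 tumors, and without it the log2 fold changes were 2.02 for Abcg1, 1.53 for Nr1h3 and 0.66 for Mylip.

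Cholesterol handling in lysosomes and elsewhere went against the enzymes with all tumors, and the lists of isoprenoid use and of sterol-regulated degradation differed little. Of 13 handling genes 11 were higher with a median of 0.51, and 7 of them had an unadjusted edgeR p under 0.05 (18.3% of all genes higher). The direction was not kept without day 3 replicate 1, since 7 of the 13 were lower with a median of -0.02, 4 were higher at that threshold (6.52% of all genes) and 1 was lower (6.56%), which was Scarb1, a lipoprotein receptor named after its values were seen. With all tumors DESeq2 called 4 of the 13 higher after adjustment, where it called 1397 of the 15494 genes tested higher. Lipa, the lysosomal acid lipase, was at 72.0 ± 10.6 CPM on day 0 and 238 ± 178 CPM on day 3 (1.73 ± 0.46), Gramd1b, a sterol carrier at membrane contacts, at 38.2 ± 3.42 CPM on day 0 and 71.5 ± 33.3 CPM on day 3 (0.90 ± 0.25), and Soat1, which esterifies cholesterol for storage, at 209 ± 7.59 CPM on day 0 and 264 ± 14.5 CPM on day 3 (0.34 ± 0.11). Day 3 replicate 1 had Lipa at 444 CPM against 132 and 139 CPM, and the values without it were 0.91 for Lipa, 0.46 for Gramd1b and 0.38 for Soat1. Of 12 genes that use isoprenoids 9 had a lower fitted level, with a median of -0.13 that was 0.02 without that tumor, and the 1 at that threshold was higher, Coq2 of coenzyme Q synthesis, at 20.2 ± 2.56 CPM on day 0 and 25.6 ± 1.90 CPM on day 3. Of 8 genes of sterol-regulated degradation 6 had a lower fitted level, with a median of -0.09 that was 0.01 without that tumor, 0 were at that threshold in either direction, and the ligase March6 was at 95.5 ± 3.29 CPM on day 0 and 84.7 ± 2.47 CPM on day 3.

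**Figure D5:**
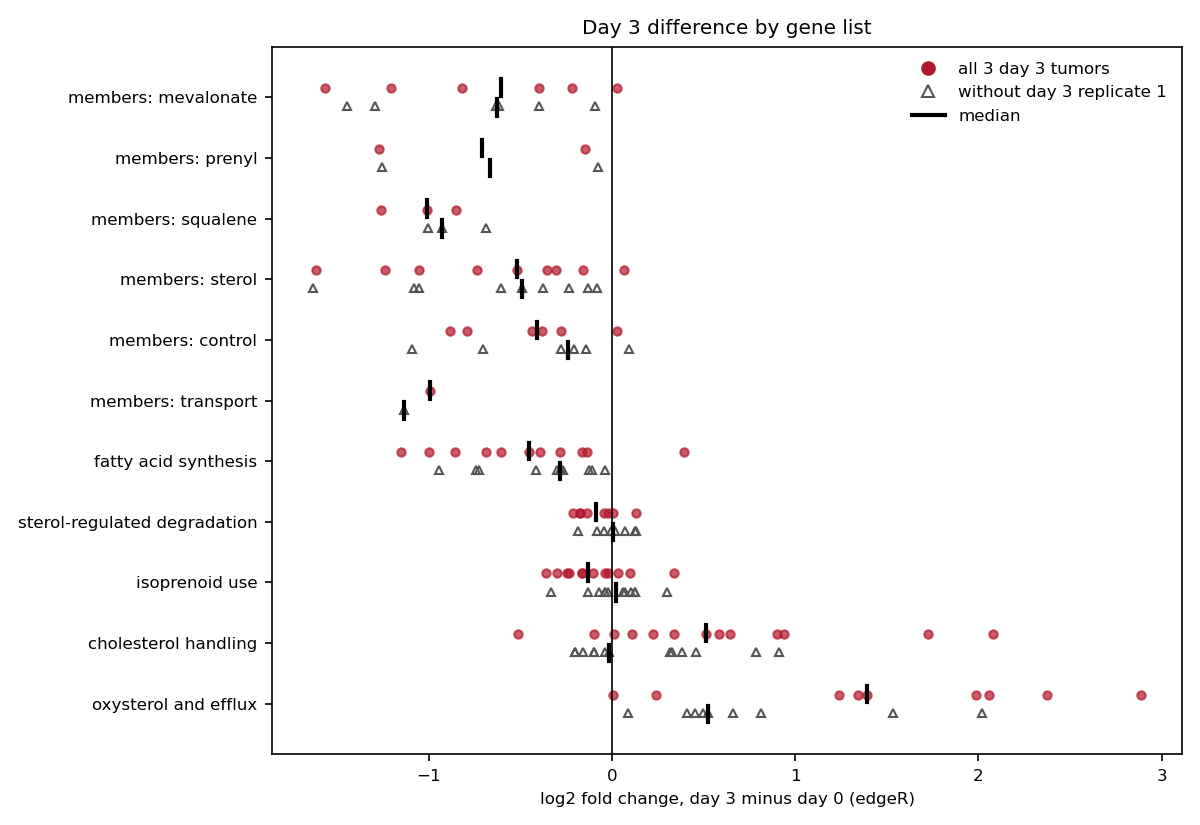
Log2 fold change on day 3 against day 0 of each gene (points) by pathway step and by neighbouring list, with all 3 day 3 tumors (circles) and without day 3 replicate 1 (triangles), with black bars for medians. The members and fatty acid synthesis lie mostly below 0 and the efflux genes above 0 in both.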

How the data were processed

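The study sequenced poly(A) RNA of 15 WEHI-164 tumors, 3 on each of 5 harvest days, as single-end reads. The harvest day and replicate number came from each tumor's labels. The authors checked reads with FastQC, quantified transcripts of the mm10 (GRCm38) mouse genome with kallisto and added them up per gene with tximport, and the transcript set and strandedness were not given in the sources used here. The values the authors deposited are estimated counts per gene, written as whole numbers, with 1 column per tumor and no pooling. Kallisto divides reads among similar transcripts, so near-identical copies and overlapping genes are uncertain. Of 32544 entries 9156 had no count in any tumor. An entry whose name a spreadsheet had turned into a date, with at most 0.0268% of a tumor's counts, was left out. Totals were 23.7 to 31.9 mega-counts per tumor, with TMM factors from 0.967 to 1.018.

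Genes above 0.366 CPM in at least 3 tumors, 15494 in all, were fitted with edgeR 4.0.16 (R 4.3.3, TMM, quasi-likelihood, harvest day as the only term, all 15 tumors, two-sided), with Benjamini-Hochberg adjustment over all genes and calls at an adjusted p under 0.05. The standard error of a log2 fold change was derived from its F statistic. DESeq2 1.42.0 was an alternative, as were other size factors, no filter, fits of only the days compared, a replicate block and leaving out each tumor. DESeq2 fits that left out replicate 1 or replicate 3 of day 3, or replicate 1 of day 7, were added after the data were seen. Log2 CPM used a prior count of 2. The fit was tested on simulated data with the same spread for every gene and no outlying tumor. That test cannot show how many true differences the fit misses in these tumors. In the main fit a p-value sets a difference between day means against the spread between tumors. That spread is estimated from all 15 tumors and partly shared between genes.

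The members and lists were chosen with earlier results of these data known, so lists are described by counts and medians with no test. All 27 members are named, from each other list described at most 3 genes with the lowest unadjusted edgeR p on day 3, and the 10 genes most like the enzyme mean, of which 2 are not reported here. Lists were 9 genes of sterol-regulated degradation (8 in the table), 12 of isoprenoid use, 13 of cholesterol handling, 11 of fatty acid synthesis, 9 of oxysterol sensing and efflux, and markers of macrophages, T cells, skeletal muscle, adipocytes, keratinocytes, erythroid cells, fibroblasts or mesenchymal cells, proliferation and the interferon response. Coordinates are those of GENCODE M21, and promoter windows those of RefSeq, GRCm38.p6.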

Additional observations from a re-analysis of the deposited data

Results flagged for a closer look

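In 2 members every day 3 tumor lay on one side of the day 0 mean and every day 7 tumor on the other. Acat2 had a day 0 mean of 33.8 CPM, at most 22.3 CPM on day 3 and at least 35.4 CPM on day 7, and its log2 fold change from day 3 to day 7 was 1.25 (edgeR adjusted p = 0.0832, DESeq2 adjusted p = 0.0114). Lbr had a day 0 mean of 101 CPM, at most 93.3 CPM on day 3 and at least 104 CPM on day 7, and its log2 fold change from day 3 to day 7 was 0.39 (edgeR adjusted p = 0.102, DESeq2 adjusted p = 0.0499). Both days were set against the same day 0 mean, while the fold changes from day 3 to day 7 do not compare with the untreated tumors. How many of all genes have this arrangement was not counted. Groups of 3 tumors were too small for a search for outlying samples.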

How the results depend on the processing

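With edgeR, 0 members passed an adjusted p of 0.05 in any comparison or in the joint test, under RLE size factors, no low-count filter, only the 2 days compared (not run for the joint test) or the replicate block. With the replicate block 0 members were called on day 3. The main fit did not pair tumors by replicate number. Deviations from the day means of same-numbered tumors correlated between -0.62 and 0.51, and 9 of 30 pairs were above 0.1. With 3 tumors per day, so wide a range cannot settle whether the numbers stand for pairs. DESeq2 called 10 members on day 3 (3.91% of all genes lower), 16 between days 3 and 7 (5.89% higher) and 6 in the joint test (7.65%), against 0 in edgeR. DESeq2 without day 3 replicate 1 called 8 between days 3 and 7 (0.241% of all genes) and 0 on day 3 against day 0 (0.286%). Without day 3 replicate 3 it called 17 (13%) and 11 (10.4%). Leaving out each tumor in turn in edgeR gave 0 to 9 calls between days 3 and 7, and 0 in the other comparisons. The 9 came without day 3 replicate 3 (3.48% of all genes), and 3 without day 1 replicate 3 (0.0518%). At an unadjusted p under 0.05 these fits gave 12 to 18 members on day 3, 14 to 20 between days 3 and 7, and 4 to 15 in the joint test, where the lowest counts came without day 3 replicate 1 (4), replicate 2 (6) and replicate 3 (8). With all tumors the shares of all genes were 11.7% lower on day 3, 12.9% higher from day 3 to day 7 and 16.2% in the joint test. The day 3 share was 6.56% without replicate 1 of that day and 17.6% without replicate 3. Shares for the joint test with a tumor left out are not given. Nor is a share given for the 12 on day 3, which came without day 0 replicate 2. The 20 between days 3 and 7, which came without day 7 replicate 2, lacks a share too. Those counts cannot be set against all genes.

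Median log2 fold changes on day 3 ranged over those fits from -1.13 to -0.85 for the squalene genes, from -0.52 to -0.24 for the control genes (-0.24 also in DESeq2 without day 3 replicate 1) and from -1.14 to -0.82 for Stard4. The members' median between days 3 and 7 was 0.44 in DESeq2 without day 7 replicate 1. Mvk, Tm7sf2 and Scap changed sign on day 3 in 1 or more fits without being called, and the other 24 members were lower in all 23. The cause of these shifts was not tested. The day 7 median changed from 0.17 to -0.07 without day 7 replicate 1. Each day had 3 tumors, and each member had at least 98 counts in every tumor. What limits the precision was not tested.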
